A study of Cavia porcellus with 72 samples.

Results

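The genes described here encode the molecular motors of the guinea pig hippocampus: the kinesins and their light chains (KIF and KLC genes), the cytoplasmic dyneins with their light chains and dynactin (DYNC, DYNL and DCTN genes), and the unconventional myosins (MYO genes). They were taken from the gene tables by symbol alone, though the choice of motor genes was made with earlier results of these data known. Of 11927 genes in any of the 3 tables, 69 matched, and 68 of these were in all 3. Each generation had 67 motor genes with enough reads for testing, of 11377 genes tested in F1, 11414 in F2 and 11359 in F3. KIF20A was in every table and KIF14 in that of F2 alone, and neither had enough reads for a test. KIF1BP matched by its symbol but is a protein that binds kinesins, not a motor itself.

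Motors carry cargo along the cytoskeleton. Kinesins mostly walk along microtubules towards the growing plus end, which in axons points away from the cell body, whereas cytoplasmic dynein, helped by dynactin, walks back towards the minus end. Unconventional myosins move along actin filaments and take vesicles and endoplasmic reticulum over short distances, for example into dendritic spines. Hippocampal neurons, with long axons and many spines, rely on all of these for the supply of synapses and the return of spent organelles and signals.

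Hippocampal mRNA came from juvenile female Dunkin-Hartley guinea pigs on postnatal day 40. Pregnant F0 females had been given the synthetic glucocorticoid (sGC) betamethasone, or saline (control), so that F1 animals were exposed in the womb, while F2 and F3 descended through the male line, by mating with untreated females. There were 6 control and 5 sGC animals in F1, 6 and 6 in F2, and 6 and 7 in F3, and each library came from a powdered portion of the right hippocampus of 1 animal. The deposited values per library summed to 13507449 to 19767033 reads. Levels are these reads per 1000000 (CPM) scaled by the trimmed mean of M-values (TMM), and changes are log2 fold changes of sGC against control from edgeR's quasi-likelihood test, with p-values adjusted by the Benjamini-Hochberg method over all genes tested in that generation. A gene is said to have changed where its adjusted p was under 0.05. The libraries were counted in 3 tables, 1 per generation, and all comparisons of sGC with control lay within a table.

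The deposited values are whole numbers, but they are not raw counts. In each table a weighted sum of ln(value + 1) over the libraries stayed within 0.0168 of 0 in F1, 0.0148 in F2 and 0.0193 in F3, for all of about 10500 genes with a mean above 50 reads. This direction across the libraries varied 52 to 55.1 times less than the next (ratio of singular values), whereas libraries counted apart from each other vary along every direction. How the values were adjusted is not given in the sources used here. The weights summed to about 0 within the control and within the sGC libraries, so the fold changes keep their values when the direction is a covariate in the fit, but each table has 1 residual degree of freedom less than its number of libraries gives (8 in place of 9 in F1, 9 in place of 10 in F2, 10 in place of 11 in F3). The test without that covariate therefore gives p-values that are too small. The effect is given beside each motor gene that passed, as the adjusted p with the missing direction as a covariate, an alternative added after the data were seen. For genes of other lists it is not given.

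Some libraries stood apart. In F3 the missing direction lay mostly in sGC replicate 5, with 79.7% of the squared weight. Its value could be computed from the other 12 libraries to within 1 read for 98.3% of genes, so it is not an independent animal in these values. The F3 count of motor genes, and the adjusted p of each that passed, are also given without it. All F3 means, SDs, ranges and statements of overlap keep it among the 7 sGC libraries. They therefore rest on fewer than 7 independent sGC animals, and the sGC SDs may be too small. Its chi-square per degree of freedom was 0.264 against the sum of sGC replicates 1, 2, 3, 4 and 7, where 1 is counting error, while those 5 differed from each other by 4.15 to 7.98. In F1 control replicate 6 held 58.4% of the squared weight. F1 sGC replicate 4 stood apart the other way, at 17.4 to 28.9 against the other sGC libraries, which differed by 5.24 to 11.3. The labels give sGC replicates 4 and 5 of F1, 6 of F2, and 5 and 6 of F3 the library numbers 32 to 36, outside the run of the others, and no control library had such a number. The hippocampal neuron list was present in all 3 tables with 11 genes, none of which was at 0 in a group. The table of F2 also stood apart in the level of some genes, whatever the treatment. Among 11047 genes with a mean of at least 1 CPM in controls, 9.78% differed more than 1.4-fold between F2 and F1 controls, against 0.317% between F3 and F1 controls, and the limit of 1.4 was chosen after the values were seen.

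More motor genes passed the test in F3 than in F1 or F2. In F3, 7 of 67 passed the test, beside 5.04% of all genes tested. With the missing direction as a covariate 5 passed, beside 3.1% of all genes, and without sGC replicate 5, 4 did, beside 2.54%. The lower ones were the dynein subunits DYNC1I1 and DYNC1LI1, the dynactin subunits DCTN1 and DCTN2, and KIF1BP. The higher ones were KIF1C and MYO6, 2 of 67 beside 2.17% of all genes. In F1 only MYO5A passed, higher in sGC animals, 1 of 67 beside 2.08% of all genes tested (1.63% higher and 0.457% lower), and with the covariate none passed, beside 0.589%. In F2 none passed, and 0 of 11414 genes did. Groups without any overlap between sGC and control animals were seen for 5 motor genes in F1, beside 4.48% of all genes, for 1 in F2 and for 5 in F3, beside 2.68%. At an unadjusted p under 0.05 the counts were 17 motor genes in F1 (19.6% of all genes), 5 in F2 (6.64%) and 20 in F3 (21.1%). Because whole tissue was sequenced, fewer cells of a type and less RNA per cell cannot be told apart in any of these values. The median log2 fold change of the motor genes was 0.02 in F1, -0.03 in F2 and 0.03 in F3, beside -0.0055, -0.00041 and 0.0048 over all genes tested.

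**Figure D1:**
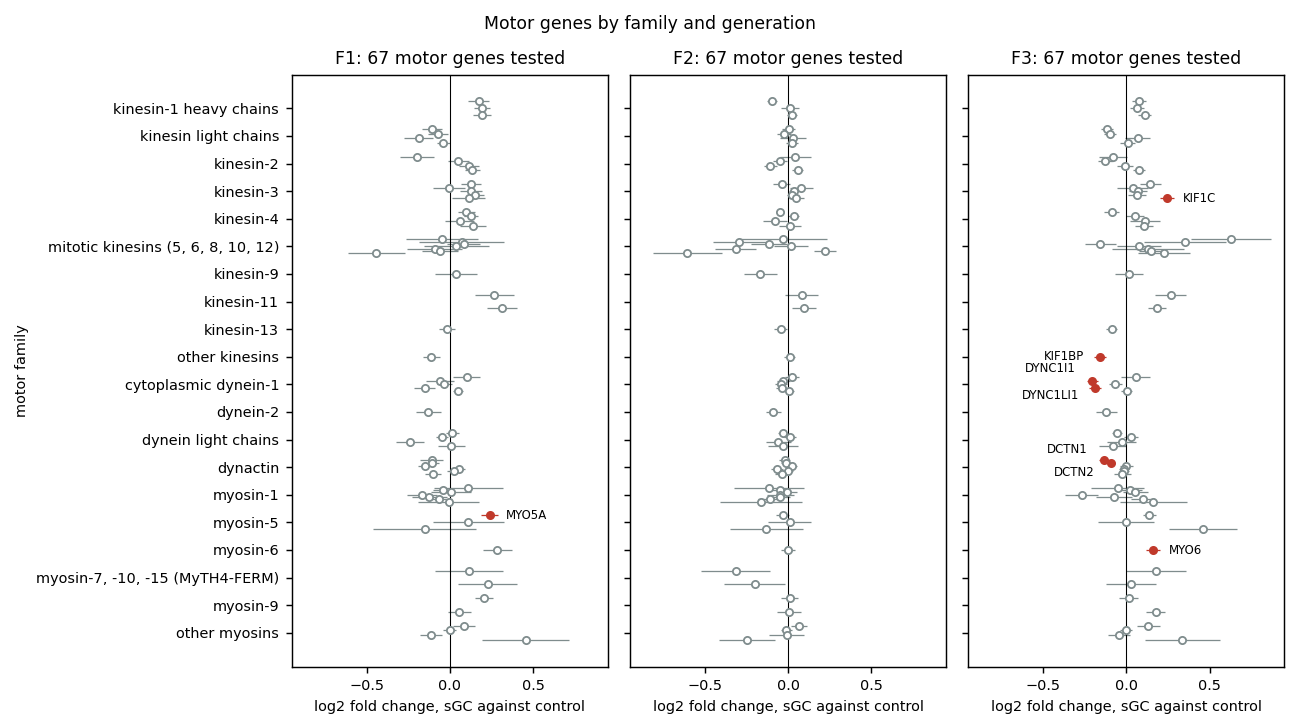
Log2 fold change of sGC against control (horizontal axis) for the 67 motor genes tested in each generation, 1 panel per generation, by motor family; points are genes, bars are standard errors, and filled red points with names have an adjusted p under 0.05. MYO5A alone is filled in F1, none in F2 and 7 genes in F3.

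Conventional kinesin, kinesin-1, is built from heavy chains (KIF5A, KIF5B and KIF5C), which hold the motor, and light chains (KLC1 to KLC4), which bind cargo. In F1 the fitted changes of its parts lay on opposite sides of 0, though none of the 7 passed the adjusted test. All 3 heavy chains were above 0 at an unadjusted p under 0.05, and all 4 light chains were below 0. Of all 11377 genes tested, 1199 were above 0 at an unadjusted p under 0.05, and 5885 were below 0. KIF5B, the heavy chain found in most cell types, had 216.7, 222.8 and 235 CPM (lowest, median and highest) in F1 controls and 238, 251, 261, 287 and 253 CPM in the 5 sGC animals. Every sGC animal was above every control, as for 2.77% of all genes tested. The means were 225 ± 7.84 (SD, n = 6) and 258 ± 18.2 (SD, n = 5), a log2 fold change of 0.19 (SE 0.0484, adjusted p = 0.0577).

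KIF5C, a heavy chain of neurons, had 1478, 1634 and 1664 CPM (lowest, median and highest) in F1 controls and 1689, 1895, 1748, 1952 and 1892 CPM in the sGC animals, again without overlap. The fitted log2 fold change of KIF5C was 0.19 (SE 0.0547, adjusted p = 0.0828). KIF5A, also a heavy chain of neurons, overlapped between the groups in F1, at 908 to 1070.0 CPM in controls and 1053 to 1246 CPM in sGC animals (log2 fold change 0.17, SE 0.0626, adjusted p = 0.148). The groups of each light chain overlapped in F1, and the smallest adjusted p among them was 0.257.

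In F2 KIF5A was on the other side of 0. Controls had 1123, 1189 and 1259 CPM (lowest, median and highest) and sGC animals 1091, 1103 and 1168 CPM. All 6 sGC animals were below the control mean, but the groups overlapped, and the log2 fold change of -0.10 (SE 0.0308) had an adjusted p of 0.678. The sGC effect on KIF5A in F2 less that in F1 was -0.28 (SE 0.0685, adjusted p = 0.0502). In F3 none of the heavy or light chains passed, the nearest being KLC1, at 608, 631 and 658 CPM (lowest, median and highest) in controls and 541, 594 and 617 CPM in sGC animals. The groups overlapped, and the log2 fold change was -0.12 (SE 0.0336, adjusted p = 0.0539). KIF5C in F3 had a log2 fold change of 0.11 (adjusted p = 0.102).

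Kinesin-3 motors carry synaptic vesicle precursors (KIF1A), mitochondria and vesicles (KIF1B) and dense-core vesicles and Golgi traffic (KIF1C). In F3 all 5 tested members were above 0, beside 5878 of all 11359 genes, though KIF13B changed sign in 2 of 23 alternatives. KIF1C passed the test. It had 87.1, 95.2 and 101.9 CPM (lowest, median and highest) in controls and 106, 112.5 and 120.3 CPM in sGC animals. Every sGC animal was above every control, as for 0.766% of all genes tested. The means were 95.4 ± 5.82 (SD, n = 6) and 112.6 ± 4.89 (SD, n = 7), a log2 fold change of 0.24 (SE 0.0417, adjusted p = 0.00526). KIF1C stayed under the threshold in all 23 alternatives, with a log2 fold change between 0.22 and 0.26. The adjusted p was 0.0118 with the missing direction as a covariate and 0.0148 without sGC replicate 5. In F1 KIF1C did not pass and had 95.5 ± 8.30 CPM in controls and 103.8 ± 18.99 in sGC animals, and in F2 95.6 ± 5.36 and 98.9 ± 6.79.

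KIF1B in F1 was without overlap too, at 1018 to 1158 CPM in controls and 1185 to 1338 CPM in sGC animals, with a log2 fold change of 0.15 (adjusted p = 0.125). KIF1A, the most-read kinesin-3, had 1279 ± 78.9 CPM in F1 controls and 1401 ± 112 in sGC animals, 1300.0 ± 41.5 and 1330.0 ± 50.9 in F2, and 1262 ± 122 and 1322 ± 64.1 in F3, and it did not pass in any generation.

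KIF1BP, which binds KIF1B and other kinesins and is known to keep them off microtubules, was lower in F3. It had 85.6, 91.8 and 94.6 CPM (lowest, median and highest) in controls and 75.9, 83.0 and 85.8 CPM in sGC animals. The groups overlapped only at the edge, and all 7 sGC animals were below the control mean. The log2 fold change was -0.16 (SE 0.0376, adjusted p = 0.0238). It passed in 17 of 22 alternatives, with an adjusted p of 0.0417 with the missing direction as a covariate and 0.047 without sGC replicate 5. Leaving out control replicate 3 or 4 or sGC replicate 2 ended the call, with adjusted p up to 0.0572, and without libraries 32 to 36 the adjusted p was 0.0786. In F1 KIF1BP had means of 91.5 ± 3.61 and 84.9 ± 6.82 CPM (log2 fold change -0.11, adjusted p = 0.231). In F2 they were 91.5 ± 2.72 and 92.1 ± 4.23 (0.01, adjusted p = 0.971). The effect in F3 less that in F1 was -0.05 (SE 0.0565, adjusted p = 0.741).

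The other kinesins gave fewer differences. Of the 4 kinesin-2 genes, motors of cilia and of axonal and dendritic transport, none passed in any generation. KIF3C, the most-read of them, had 566 ± 17.9 CPM in F1 controls and 623 ± 30.5 in sGC animals (log2 fold change 0.13, SE 0.0449, adjusted p = 0.124), 563 ± 24.8 and 586 ± 21.9 in F2 (0.06, adjusted p = 0.768), and 586 ± 25.8 and 617 ± 30.4 in F3 (0.08, adjusted p = 0.252). KIF3A in F3 had 193, 203.9 and 230.0 CPM (lowest, median and highest) in controls and 176, 192.5 and 199 CPM in sGC animals, with a log2 fold change of -0.13 (adjusted p = 0.112). KIFAP3, the accessory subunit that joins KIF3A and KIF3B to cargo and is not itself a motor, was lower in F3. Its means were 292.5 ± 13.8 and 256 ± 11.3 CPM (log2 fold change -0.19, SE 0.0377, adjusted p = 0.00998 without the covariate). Kinesin-4, which includes the microtubule regulators KIF21A and KIF21B, had no gene past the threshold in any generation. In F1 4 of 4 genes were above 0, beside 5492 of all 11377 genes, though KIF27 changed sign in 1 alternative. KIF21A, its most-read gene, had 283 ± 14.2 CPM in F1 controls and 304 ± 20.2 in sGC animals (log2 fold change 0.10, SE 0.0511, adjusted p = 0.305). In F2 the means of KIF21A were 338 ± 7.44 and 327 ± 8.73 (-0.05, adjusted p = 0.764), and in F3 290.3 ± 18.7 and 273 ± 14.04 (-0.09, adjusted p = 0.276).

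KIF2A, the tested kinesin-13, a family that shortens microtubules in place of walking along them, did not pass. It had 178 ± 8.35 CPM in F1 controls and 176 ± 11.6 in sGC animals (log2 fold change -0.02, adjusted p = 0.87), from 180.3 to 201.2 and from 173.3 to 196.4 over the animals of F2 (-0.05, adjusted p = 0.825), and 178 ± 5.91 and 167 ± 7.18 in F3 (-0.09, SE 0.0336, adjusted p = 0.143). KIF9, the tested kinesin-9, had 9.63 ± 1.09 and 9.91 ± 2.13 CPM in F1 (0.04, adjusted p = 0.901), 10.2 ± 0.877 and 9.12 ± 1.47 in F2 (-0.17, adjusted p = 0.773), and 10.01 ± 0.98 and 10.1 ± 1.14 in F3 (0.01, adjusted p = 0.944). The groups of both genes overlapped in every generation.

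KIF26B, an atypical kinesin-11 without known motor activity, had 88.4 ± 10.1 CPM in F1 controls and 110.0 ± 13.9 in sGC animals (log2 fold change 0.31, SE 0.0891, adjusted p = 0.0811). In F2 the means were 107.3 ± 11.5 and 114.5 ± 12.4 (log2 fold change 0.09, adjusted p = 0.81). In F3 they were 87.6 ± 6.86 and 99.2 ± 6.60, with a log2 fold change of 0.18 (SE 0.0531, adjusted p = 0.0539). The groups of KIF26B overlapped in all 3 generations.

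The kinesins of families 5, 6, 8, 10 and 12, most of which serve dividing cells, had few reads in this tissue, with means of at most 9.57 CPM. None of the 7 tested passed in any generation. KIF22, a chromokinesin, was the only motor gene in F2 whose groups did not overlap, as for 0.377% of all genes tested. Its controls had 7.88, 8.24 and 8.36 CPM (lowest, median and highest) and its sGC animals 8.52, 9.54 and 10.3 CPM, with a log2 fold change of 0.22 (SE 0.064, adjusted p = 0.678). KIF23, a motor of the cleavage furrow, had 1.53 ± 0.28 CPM in F2 controls and 1.01 ± 0.324 in sGC animals (log2 fold change -0.61, adjusted p = 0.678). Each table held 7 proliferation genes, of which 5 or 6 were tested and none passed the threshold. KIF22 in F1 had means of 8.78 ± 0.813 and 8.48 ± 1.35 CPM (adjusted p = 0.794) and in F3 of 8.39 ± 0.775 and 9.26 ± 0.523 (adjusted p = 0.242).

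Cytoplasmic dynein-1 is built on the heavy chain DYNC1H1, which holds the motor, with intermediate chains (DYNC1I1, DYNC1I2) that bind dynactin and light intermediate chains (DYNC1LI1, DYNC1LI2) that bind cargo adaptors. Its 5 genes and the 6 dynactin genes gave 4 lower and 0 higher genes past the threshold in F3, where 2.87% of all genes tested were lower. With the missing direction as a covariate 3 remained (DYNC1I1, DYNC1LI1 and DCTN1), and without sGC replicate 5, 2 did (DYNC1I1 and DYNC1LI1). They gave none in F1 or F2. All 4 were also without overlap in F3, with every sGC animal below every control, as for 1.91% of all genes tested.

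DYNC1I1, the neuronal intermediate chain, had 289, 309.7 and 319 CPM (lowest, median and highest) in F3 controls and 252, 265 and 288 CPM in sGC animals. The means were 307 ± 10.7 (SD, n = 6) and 266 ± 12.7 (SD, n = 7). The log2 fold change was -0.20 (SE 0.0346, adjusted p = 0.00506). DYNC1LI1 had 67.7, 71.0 and 77.4 CPM in controls and 61.0, 63.0 and 65.3 CPM in sGC animals. Both groups were narrow, with means of 72.1 ± 3.74 and 63.2 ± 1.68, and the log2 fold change was -0.19 (SE 0.037, adjusted p = 0.0093). With the missing direction as a covariate the adjusted p was 0.012 for DYNC1I1 and 0.0195 for DYNC1LI1, and without sGC replicate 5 it was 0.0148 and 0.0267. Both genes passed in all 23 alternatives, with log2 fold changes from -0.22 to -0.19 for DYNC1I1 and from -0.20 to -0.16 for DYNC1LI1.

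The paralogs of these subunits did not pass. DYNC1I2, the intermediate chain of most tissues, had 103 ± 3.58 CPM in F3 controls and 98.1 ± 5.73 in sGC animals (adjusted p = 0.377). DYNC1LI2 had 219 ± 6.96 and 219 ± 8.22 CPM (adjusted p = 0.974). The heavy chain DYNC1H1 varied most among the dynein-1 genes, at 443, 609.6 and 694 CPM (lowest, median and highest) in controls and 536, 603 and 742 CPM in sGC animals. Its groups overlapped widely and its adjusted p was 0.771. In F1 the means of DYNC1H1 were 704 ± 42.1 and 757 ± 104 CPM (adjusted p = 0.508) and in F2 757.5 ± 43.1 and 771 ± 45.2 (adjusted p = 0.93).

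Dynactin is the large complex that makes dynein processive, and DCTN1 (p150Glued) is the arm that holds dynein and the microtubule. DCTN1 had 592, 624 and 655 CPM (lowest, median and highest) in F3 controls and 545, 567 and 591 CPM in sGC animals. The highest sGC animal and the lowest control were close, at 591.1 and 591.9 CPM. The log2 fold change was -0.13 (SE 0.0315, adjusted p = 0.0222), and DCTN1 passed in 17 of 23 alternatives, with an adjusted p of 0.0414 with the missing direction as a covariate and 0.0551 without sGC replicate 5. Leaving out control replicate 2 or 3 or sGC replicate 5 ended the call of DCTN1, with adjusted p up to 0.0554. DCTN2 (dynamitin), which joins the arm to the rest of the complex, had 196.7, 199.8, 200.2, 200.6, 196.8 and 209 CPM in the 6 controls and 184, 186 and 192 CPM (lowest, median and highest) in sGC animals. This gave a log2 fold change of -0.09 (SE 0.0261, adjusted p = 0.0494), and DCTN2 passed in 3 of 23 alternatives and in none of the 13 that left out a single library. Its adjusted p was 0.0845 with the covariate and 0.101 without sGC replicate 5. Without libraries 32 to 36 the adjusted p was 0.0621 for DCTN1 and 0.142 for DCTN2. DCTN3 to DCTN6 did not pass in F3, with a smallest adjusted p of 0.813 at DCTN5.

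In F1 the same complex gave no change past the threshold. DCTN1 had means of 640 ± 24.98 and 595 ± 66.7 CPM there (adjusted p = 0.391) and of 529 ± 11.4 and 521 ± 27.04 in F2 (adjusted p = 0.915). DCTN3, the small subunit of the dynactin shoulder, had 341, 350.4 and 380.5 CPM (lowest, median and highest) in F1 controls and 321, 313, 329, 302 and 333 CPM in sGC animals. The groups did not overlap, as for 1.71% of all genes tested on that side, and the log2 fold change was -0.15 (SE 0.0422, adjusted p = 0.0768). DYNC1LI1 in F1 had a log2 fold change of -0.15 (adjusted p = 0.207) and DCTN2 of -0.11 (adjusted p = 0.191). DYNC1I1 in F1 had means of 313 ± 21.7 and 301.5 ± 44.6 CPM and in F2 of 314.5 ± 9.80 and 308.5 ± 18.1, and did not pass. For DYNC1I1 the effect in F3 less that in F1 was -0.15 (SE 0.082, adjusted p = 0.437) and less that in F2 was -0.18 (SE 0.08, adjusted p = 0.534). For DYNC1LI1, DCTN1 and DCTN2 the effect in F3 less that in F1 was nearer 0, at -0.04, -0.03 and 0.01 (adjusted p = 0.83, 0.882 and 0.956). Less that in F2 it was -0.15, -0.11 and -0.08 (adjusted p = 0.528, 0.614 and 0.599). The lower levels of these genes in F3 thus did not pass a test of difference from F1 or F2.

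The dynein light chains, small dimeric proteins, gave no gene past the threshold. DYNLL2, the most-read of the 4, had 605 ± 9.84 and 613 ± 16.4 CPM in F1 controls and sGC animals, 598 ± 17.5 and 584.5 ± 15.5 in F2, and 623 ± 22.6 and 598 ± 14.3 in F3. DYNC2LI1, the only tested gene of dynein-2, the motor of cilia, was between 29.8 and 33.7 CPM in every group mean.

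**Figure D2:**
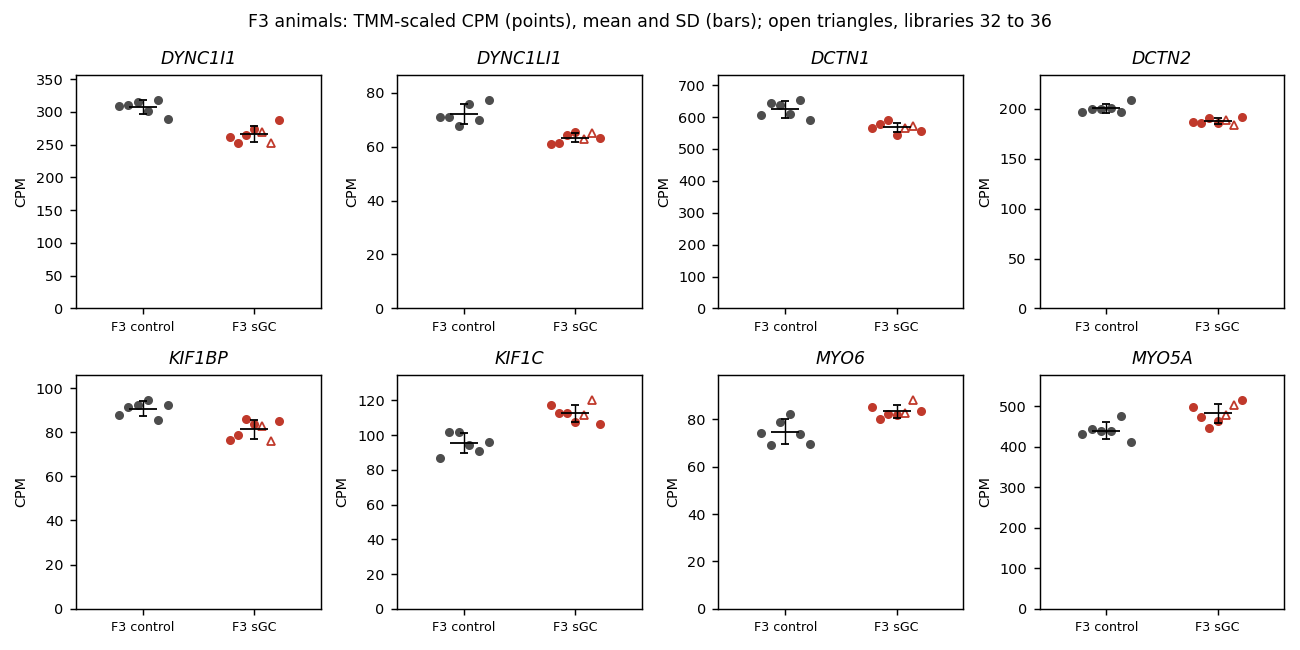
CPM (vertical axes, from 0) in each F3 animal for the 7 motor genes that passed the test and for MYO5A, with control animals in grey and sGC animals in red, open triangles for libraries numbered 32 to 36, and black bars for mean and SD. DYNC1I1, DYNC1LI1, DCTN1 and DCTN2 are lower in every sGC animal than in any control and KIF1C is higher, while KIF1BP, MYO6 and MYO5A overlap.

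Myosin-5 motors carry vesicles and endoplasmic reticulum on actin, and MYO5A is the main form of neurons. MYO5A was the motor gene that passed in F1. Controls had 423, 432 and 461 CPM (lowest, median and highest) and the 5 sGC animals 496, 492, 485, 573 and 547 CPM. Every sGC animal was above every control. The means were 438 ± 14.1 (SD, n = 6) and 519 ± 39.1 (SD, n = 5), a log2 fold change of 0.24 (SE 0.0518, adjusted p = 0.0342). With the missing direction as a covariate the adjusted p was 0.0702. The direction was the same in all 21 alternatives, with a log2 fold change from 0.16 to 0.26, and 10 of them kept the adjusted p under 0.05. Leaving out any of control replicates 1 to 5, or sGC replicate 5, ended the call, with adjusted p up to 0.087. Without libraries 32 to 36, that is without sGC replicates 4 and 5, it was 0.16 (adjusted p = 0.0714).

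In F2 MYO5A had 494, 516 and 539 CPM (lowest, median and highest) in controls and 472, 504.8 and 552 CPM in sGC animals, with a log2 fold change of -0.03 (SE 0.0378, adjusted p = 0.875). Its controls in F2 lay wholly above those of F1 and F3, with means of 516, 438 and 440 CPM. The part of this shift of the F2 table in the difference that follows was not tested. The difference between the effects of F2 and F1 was -0.28 (SE 0.0634) and passed its own test (adjusted p = 0.0336), as for 0.29% of all genes tested in that comparison. With the missing directions as covariates the adjusted p was 0.0734. Without libraries 32 to 36 the difference was -0.22 (adjusted p = 0.0535). It also missed the threshold, with adjusted p up to 0.0852, when control replicate 1 or 5 or sGC replicate 5 of F1, or control replicate 2 or 4 or any of sGC replicates 1 to 5 of F2, was left out. In F3 the gene had 412, 439 and 477 CPM in controls and 447, 478 and 516 CPM in sGC animals. All 7 sGC animals were above the control mean, and the log2 fold change of 0.14 (SE 0.0389) had an adjusted p of 0.0513. The effect in F3 did not pass a test of difference from F1 (-0.11, SE 0.0623, adjusted p = 0.462) or from F2 (0.17, SE 0.0608, adjusted p = 0.494).

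**Figure D3:**
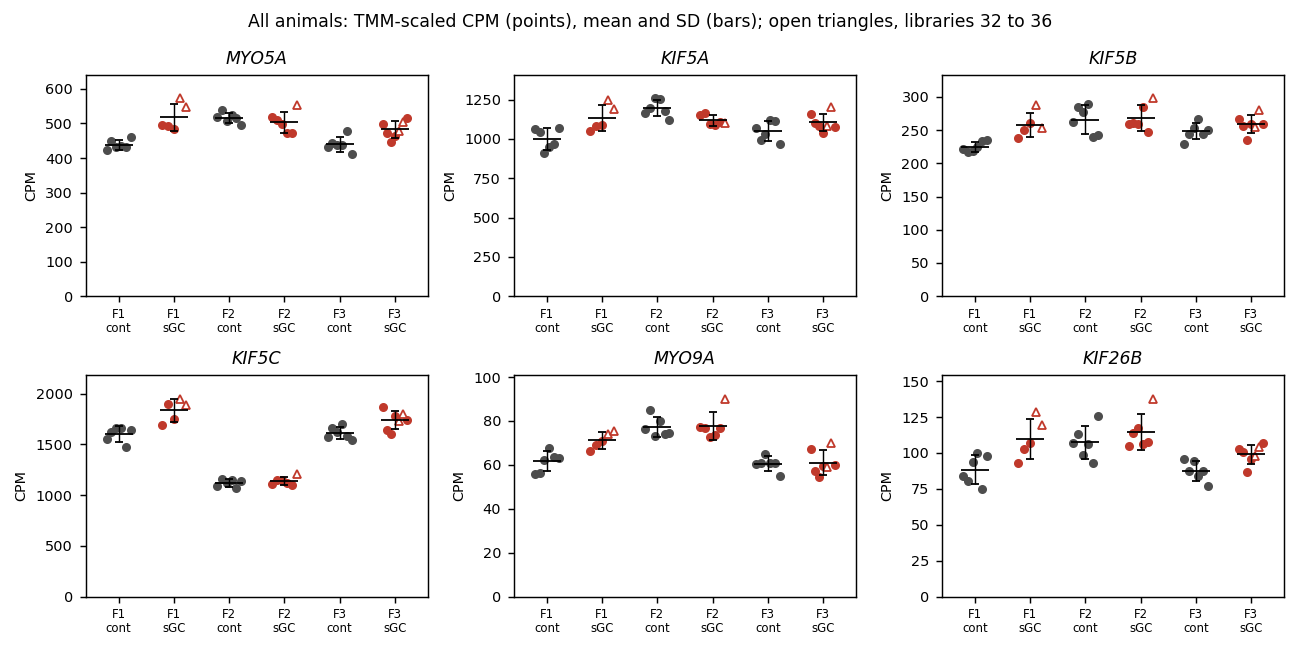
CPM (vertical axes, from 0) in all 36 animals by generation and treatment for MYO5A, the kinesin-1 heavy chains KIF5A, KIF5B and KIF5C, MYO9A and KIF26B, with controls (cont) in grey, sGC animals in red, open triangles for libraries numbered 32 to 36, and black bars for mean and SD. MYO5A, KIF5B and KIF5C are without overlap in F1, and KIF5C lies lower in both groups of F2 than in F1 or F3.

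MYO6, the myosin that walks towards the minus end of actin filaments and serves endocytosis, was higher in F3. It had 69.3, 74.2 and 82.4 CPM (lowest, median and highest) in controls and 80.3, 82.6 and 88.2 CPM in sGC animals. The groups overlapped, and all 7 sGC animals were above the control mean. The log2 fold change was 0.16 (SE 0.0419, adjusted p = 0.0379), and 9 of 23 alternatives kept it under the threshold. The adjusted p was 0.0615 with the missing direction as a covariate and 0.0733 without sGC replicate 5. Of the 13 that left out a single library 4 did, those without control replicate 3 or 4 or sGC replicate 2 or 3. In F1 MYO6 had 61.8, 69.2 and 76.1 CPM in controls and 71.0, 78.2, 80.7, 106 and 85.0 CPM in sGC animals. The log2 fold change there was 0.29 (SE 0.0867, adjusted p = 0.0955). In F2 the means were 80.8 ± 4.73 and 80.8 ± 4.42 CPM.

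Of the 2 myosin-9 genes, none passed in any generation. MYO9A had 56.0, 62.8 and 67.9 CPM (lowest, median and highest) in F1 controls and 66.3, 68.8, 71.0, 74.1 and 75.2 CPM in sGC animals, with a log2 fold change of 0.20 (SE 0.055, adjusted p = 0.0712). In F3 its means were 60.6 ± 3.24 and 61.0 ± 5.62 CPM. MYO9B in F3 had 51.6, 59.8 and 65.3 CPM in controls and 62.0, 65.0 and 74.5 CPM in sGC animals (log2 fold change 0.18, adjusted p = 0.0834).

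Myosin-1 motors are single-headed and link membranes to actin. All 7 tested were below 0 in F2, beside 5737 of all 11414 genes. Of these, MYO1A, MYO1C, MYO1D and MYO1G changed sign there in at least 1 alternative. In F1 2 of 7 were above 0 and in F3 4 of 7, and none passed in any generation. MYO1D, the most-read, had 37.1, 43.2 and 53.4 CPM (lowest, median and highest) in F3 controls and 28.6, 34.9 and 47.5 CPM in sGC animals (log2 fold change -0.27, SE 0.1, adjusted p = 0.132). MYO18A, a myosin without motor activity, had means between 154 and 163 CPM in all 6 groups. MYO7A had 2.16 ± 0.367 and 2.56 ± 0.692 CPM in F1 (log2 fold change 0.23, adjusted p = 0.507), 2.62 ± 0.447 and 2.27 ± 0.686 in F2 (-0.20, adjusted p = 0.841), and 2.87 ± 0.582 and 2.95 ± 0.572 in F3 (0.03, adjusted p = 0.934). MYO7A, MYO15A, MYO3A and MYO5C, known from inner ear or epithelia, had means under 3 CPM.

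Between the effects of F3 and F1 no motor gene passed the test of difference, and 0 of 11390 genes did. At an unadjusted p under 0.05 there were 6 motor genes, beside 13.1% of all genes, and the smallest adjusted p was 0.178, for KIF21A (-0.19, SE 0.0602). Next were DCTN3 (0.15, SE 0.048, adjusted p = 0.198) and KIF23 (0.66, SE 0.247, adjusted p = 0.26). Without F1 sGC replicate 4, 3 motor genes passed, DYNC1I1, KIF21A and KIF3A, beside 3.98% of all genes in that setting. Without F3 control replicate 6, KIF21A was the 1 motor gene of 67 that passed, beside 0.536% of all genes. Between F2 and F1, 13 motor genes were at an unadjusted p under 0.05, beside 16.8% of all genes, and MYO5A was the only motor gene past the threshold, with KIF5A, given above, and DCTN3 (0.17, SE 0.0494, adjusted p = 0.087) next. For MYO5A, KIF5A and DCTN3 the F2 controls lay wholly apart from those of F1 and F3, as for 18.6% of all genes compared. Between F3 and F2 none passed, of motor genes or of all genes, and 8 motor genes were at an unadjusted p under 0.05, beside 9.08% of all genes. The smallest unadjusted p were those of KIF23 (0.83, SE 0.238, adjusted p = 0.456), KIF1BP (-0.17, SE 0.0552, adjusted p = 0.494) and MYO5A. These differences share animals, F1 in the first pair and F2 in the last.

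Markers of other cells differed between the groups as well. In F1 the 9 tested genes of meningeal fibroblasts were all below 0, with a median log2 fold change of -0.86, and LUM (-0.50, adjusted p = 0.0258) and DCN (-0.99, adjusted p = 0.0494) passed, 2 of 9 beside 0.457% of all genes tested. Their summed level was 136 to 388.5 CPM in F1 controls and 90.6 to 183 CPM in sGC animals, so the groups overlapped. The 6 oligodendrocyte genes were below 0 in F1 too, with a median of -0.24 and none past the threshold, at sums of 1696 to 2374 and 1503 to 2223 CPM. In F2 and F3 no gene of either list passed, and in F3 all 9 meningeal genes were above 0. None of these genes was at 0 in a group, and no microglial, endothelial or ependymal gene passed in any generation. In F3 all 9 genes of an astrocyte list were above 0 and 4 passed the test, beside 2.17% of all genes. Their summed level was 9499 to 10420 CPM in controls and 10670 to 12220 CPM in sGC animals, without overlap. Of the 11 neuron genes 2 were above 0 and 9 below, 3 of them (GAD1, GAD2 and SNAP25) past the threshold beside 2.87% of all genes, with sums of 12410 to 13270 CPM in controls and 10890 to 14690 CPM in sGC animals. In F1 all 9 astrocyte genes were above 0 and 1 passed, beside 1.63% of all genes, with sums of 8596 to 11220 and 9926 to 16170 CPM. The adjusted p of all these marker genes come from the fit without the covariate, and so are too small. The part of these cells in the motor results was not tested.

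The libraries with the highest astrocyte sum of their generation also had extreme levels of some motor genes. These were sGC replicate 4 of F1 (16170 CPM), replicate 6 of F2 (12600 CPM) and replicate 6 of F3 (12220 CPM), all among the libraries numbered 32 to 36. Each had the highest KIF1C of its generation, at 136, 111.7 and 120.3 CPM. Each also had the highest MYO6, at 106, 89.3 and 88.2 CPM, and the lowest KLC1, at 514, 574 and 541 CPM. The same 3 libraries had the lowest DCTN2, at 174, 179 and 184 CPM. In F1 replicate 4 had the lowest DYNC1I1 (232 CPM) and DCTN1 (477 CPM), and in F2 replicate 6 had the lowest of each (281 and 489 CPM). In F3 the lowest of these genes were in other sGC animals, sGC replicate 2 for DYNC1I1 (252 CPM) and replicate 4 for DCTN1 (545 CPM). DYNC1LI1 was lowest in sGC replicate 4 of F1, 5 of F2 and 1 of F3. KIF1BP was lowest in sGC replicate 4 of F1, control replicate 1 of F2 and sGC replicate 6 of F3. MYO5A was highest in sGC replicate 4 of F1, 6 of F2 and 7 of F3. How many of all genes had their extremes in these libraries was not counted.

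In F1 the changes also ran with gene length. Locus length was known for 66 motor genes from RefSeq. Genes were put in 4 bins of equal size by length. In the bin of longest genes, from 72.2 kb, the median log2 fold change of all genes was 0.06 and that of the 21 motor genes 0.11, with 15 above 0 and 6 below. In the bin of shortest genes it was -0.06 for all genes and -0.04 for the 6 motor genes. Per library, the median of long genes less that of short genes was -0.0127 to 0.00714 in F1 controls and 0.0612 to 0.144 in sGC animals. The groups did not overlap in F1, and they overlapped in F2 and F3. MYO5A, at 155 kb, and KIF5C, at 163 kb, are in that longest bin, whereas KIF5A (39.8 kb) and KIF5B (50.9 kb) are not. With the trend with length removed, an alternative added after the data were seen, 0 motor genes passed in F1, beside 0.435% of all genes. MYO5A had a log2 fold change of 0.18 there (adjusted p = 0.15). The F3 count was then 8, beside 6.26% of all genes.

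**Figure D4:**
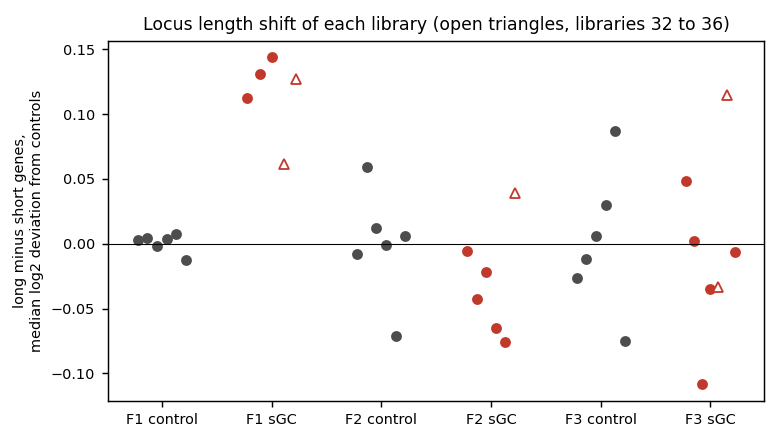
Median log2 deviation of genes in the longest bin less that of genes in the shortest bin (vertical axis), for each library by generation and treatment, with controls in grey, sGC animals in red and open triangles for libraries numbered 32 to 36. The 5 F1 sGC libraries lie from 0.0612 to 0.144, above all 6 F1 controls.

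The cofactors and tracks of the motors gave their own counts, from lists written beside the motor genes. Of 33 adaptors and partner subunits tested in F3, 1 was higher and 3 lower past the threshold, beside 2.17% and 2.87% of all genes tested. TRAK1, which couples mitochondria to kinesin-1 and dynein, was higher, with means of 245 ± 13.2 and 276 ± 12.4 CPM (log2 fold change 0.18, adjusted p = 0.0151). KIFAP3, given above, was lower, as were RHOT1 (Miro1), which anchors TRAK1 to mitochondria (log2 fold change -0.12, adjusted p = 0.0448), and ACTR10 (Arp11), a dynactin subunit outside the DCTN names (log2 fold change -0.16, adjusted p = 0.0435). In F1 BICD1, a dynein adaptor, was the only one past the threshold of 33, beside 2.08% of all genes, at 189 ± 7.67 and 213 ± 6.47 CPM (log2 fold change 0.16, adjusted p = 0.0497), and in F2 none of 35 passed.

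Of 20 tubulins and microtubule-associated proteins tested in F3, 4 were lower past the threshold and none higher, beside 2.87% and 2.17% of all genes. They were MAP9 (log2 fold change -0.17, adjusted p = 0.0156), TUBA1C (-0.14, adjusted p = 0.0222), MAP7D2, a cofactor that helps kinesin-1 onto microtubules (-0.14, adjusted p = 0.0462), and TUBB4B (-0.16, adjusted p = 0.0463). In F1 only DCX, the doublecortin of young neurons, passed, 1 of 20 beside 2.08% of all genes, higher at 26.3 ± 0.699 and 31.1 ± 2.36 CPM (log2 fold change 0.24, adjusted p = 0.0393). Among 11 genes of myosin II and its regulators PPP1R12B, a subunit of myosin phosphatase, was higher in F1 (log2 fold change 0.21, adjusted p = 0.0256), 1 of 11 beside 1.63% of all genes, and none passed in F2 or F3. Among 11 axonemal dyneins, motors of beating cilia, DNAH3 was higher in F3 (log2 fold change 0.50, adjusted p = 0.0463), at 2.33 ± 0.543 and 3.30 ± 0.376 CPM, 1 of 11 beside 2.17% of all genes. The adjusted p of these cofactors and tracks come from the fit without the covariate.

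Some motor genes had other levels in the table of F2 than in the tables of F1 and F3, in controls and sGC animals alike. Of the 66 motor genes compared, 7 (10.6%) differed more than 1.4-fold between F2 and F1 controls, beside 9.78% of all genes. Between F3 and F1 controls 1 did (1.52%), beside 0.317%. For 10 motor genes (15.2%) the F2 controls lay wholly above or wholly below those of both F1 and F3, beside 18.6% of all genes. The shift of the F2 table was thus not particular to motor genes. MYO19, a mitochondrial myosin, had 23.9 CPM in F1 controls, 3.73 in F2 and 23.6 in F3. DCTN3 had 354, 172 and 339 CPM, KIF5C 1603, 1120 and 1614 CPM, and MYO1D 43.2, 28.7 and 44.2 CPM in the same order. MYO5B, a myosin of recycling endosomes, was the other way, with 9.05, 16.9 and 9.01 CPM. In the sGC animals MYO19 had 22.2, 3.72 and 22.9 CPM and DCTN3 320, 175.1 and 339 CPM. Generation and table cannot be told apart here.

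**Figure D5:**
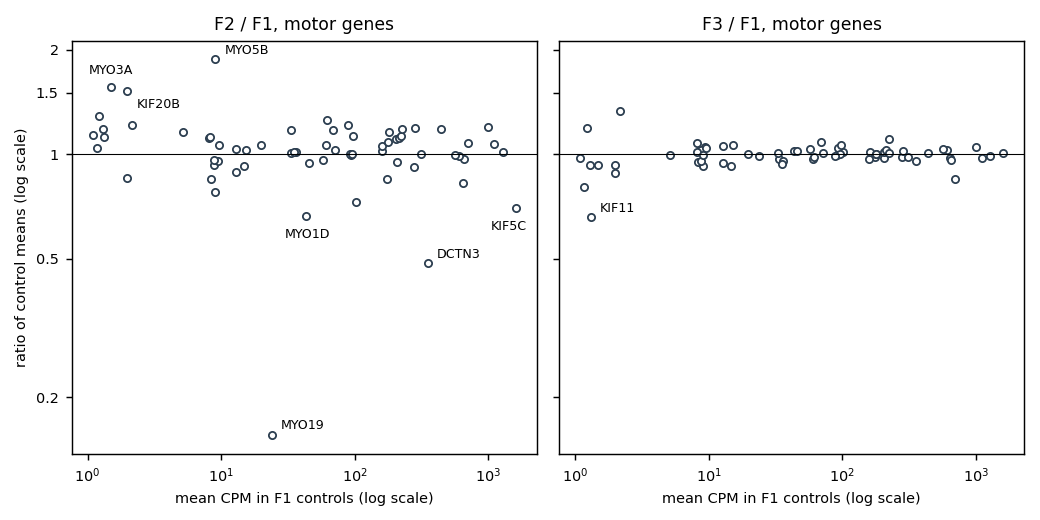
Ratio of control means (vertical axis, log scale) of F2 to F1 (left) and of F3 to F1 (right) for each of 66 motor genes, against the mean CPM in F1 controls (horizontal axis, log scale), with genes past 1.4-fold named. MYO19, DCTN3, MYO1D and KIF5C lie low and MYO5B, MYO3A and KIF20B high in F2, while in F3 only the low-read KIF11 lies past 1.4-fold.

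The spread between animals sets what could be seen. For motor genes with at least 10 CPM the coefficient of variation among controls had a median of 5.59% in F1, 4.84% in F2 and 6.43% in F3. Below 10 CPM the medians were 13.6%, 13.98% and 20.2%. The standard error of the log2 fold change in F3 was 0.0346 for DYNC1I1, with a median of 5074.5 reads in controls, and 0.24 for the little-read KIF11, so that a difference of the size seen in DYNC1I1 was not detectable in KIF11 at this depth. Because the values were adjusted before deposit, these spreads may hold less than the variation between the animals as sequenced.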

How the data were processed

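RNA was measured in 36 libraries, 1 per animal, made with the TruSeq RNA V2 kit, which does not mark strand, and read from a single end. As deposited by the authors, the values are whole numbers on the scale of read counts per gene, and were treated as estimated counts, because ln(value + 1) lacks 1 direction of variation across the libraries of each table (last singular vector over genes with a mean above 50). The design assumed raw counts. The test was kept as designed and repeated with that direction as a covariate, in edgeR and in limma on log2 CPM. Library totals are sums of these values, so the sequenced depth is unknown. TopHat2 and edgeR are named in the submitters' processing notes, and the genome build, annotation and counting tool are not given in the sources used here. Columns of the authors' own comparison beside the counts (fold changes, likelihood ratios, p-values) and the methylation tables, which hold only comparisons, were not used.

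The counts were analysed in R 4.3.3 with edgeR 4.0.16 (filterByExpr, TMM, quasi-likelihood fit and test), each generation alone, with Benjamini-Hochberg adjustment over all genes tested and a threshold of 0.05. Differences between generations were interactions over all 36 libraries. CPM used 1 TMM scale over all libraries, per 1000000 reads. DESeq2 1.42.0, limma 3.58.1, edgeR's likelihood ratio test, other size factors, no filter, other sets of libraries and a replicate block were alternatives. Fits were tested on simulated counts drawn independently for each library. These lacked the missing direction of the deposited values, so they cannot show how often the test errs on such values. Locus lengths came from RefSeq, by symbol, for 93.0% of genes tested. Figures used Python 3.11.15 and matplotlib 3.10.9.

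Library pairs of a group differed by a chi-square per degree of freedom from 2.11 to 28.9. Animals of a group came from different mothers. The motor genes, families and lists were chosen with earlier results of these data known. Means and fold changes were given for genes past the threshold, the 3 smallest unadjusted p where fewer than 3 passed, the most-read gene of each family, MYO5A and KIF26B. Other subunits of kinesin-1, dynein-1 and dynactin, other genes at an unadjusted p under 0.05, the genes of the tables that differ in F2 and the library comparisons were added after their values were seen. Overlapping or antisense genes and close paralogs could not be told apart beyond the authors' counting.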

Additional observations from a re-analysis of the deposited data

Results flagged for a closer look

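Among 168 groups of values of 28 motor genes, 13 held a sample far from the others of its group by Dixon's criterion, where chance gives about 1 in 20. In F1 sGC replicate 4 was low for DCTN1 at 477 CPM (nearest 620.0), for KIF21A at 269 (nearest 310.0) and for KIF2A at 156 (nearest 178). KIF1A was low in F1 control replicate 3, at 1130.0 CPM (nearest 1270.0), and high in F1 sGC replicate 5, at 1590.0 (nearest 1380.0). In F2 sGC replicate 6 was low for KLC1 at 574 CPM (nearest 634) and high for MYO6 at 89.3 (nearest 80.7) and MYO9A at 90.2 (nearest 77.0). F2 control replicate 1 was low for KIF1BP at 86.1 CPM (nearest 92), and F2 control replicate 2 was high for KIF9 at 11.9 (nearest 10.3). In F3 control replicate 6 was high for DCTN2 at 209 CPM (nearest 201) and low for KIF21A at 255 (nearest 289), and control replicate 1 was low for KIF9 at 8.17 (nearest 9.97).

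The sGC effect on MYO5A differed between F2 and F1 by -0.28 on the log2 scale in a test of the difference itself, with an adjusted p of 0.0336 by edgeR's quasi-likelihood test, and of 0.0734 with the missing directions as covariates.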

How the results depend on the processing

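In F1 the count of motor genes past the threshold was 1, beside 2.08% of all genes. It became 7 by the likelihood ratio test (5.26% of all genes), 10 by DESeq2 (5.78%) and 10 with all 3 generations fitted together (7.48%). It was 0 with the replicate block (0.598%) and without libraries 32 to 36 (0.845%). In 3 alternatives added after the data were seen it was 0 as well. These were the length trend removed (0.435%), the missing direction as a covariate (0.589%), and limma on log2 CPM with that covariate (0.571%). With 1 library left out it was 0 to 5 (0.49% to 3%). In F3 the count was 7, beside 5.04% of all genes, and became 12 by DESeq2 (8.31%) and 4 with all generations together (2.93%). It was 3 with the replicate block (1.51%) and 3 without libraries 32 to 36 (2.79%). With the missing direction as a covariate it was 5, in edgeR (3.1%) or in limma (3.23%). With 1 library left out it was 4 to 8 (2.54% to 5.63%). DYNC1I1, DYNC1LI1 and KIF1C passed in all 23 of these. In F2 the count was 0 in all 22 alternatives. The F3 against F1 difference gave 0, then 3 without libraries 32 to 36 (3.77% of all genes) and 0 to 3 with 1 library left out (0% to 3.98%). The F2 against F1 difference gave 1 (0.29% of all genes), then 2 by the likelihood ratio test (1.47%), 4 by DESeq2 (2.37%) and 2 without a filter (0.577%). It gave 0 with the replicate block (0.0351%) and without libraries 32 to 36 (0.596%). With the missing directions as covariates, in edgeR or in limma, it gave 0 (0% in each). With 1 library left out it gave 0 to 3 (0% to 1.92%). The F3 against F2 difference gave 0 throughout. Smaller sets of libraries held fewer samples, and the covariate left 1 residual degree of freedom less. Some counts rose and others fell with fewer libraries. Why a count moved was not tested for any setting. Of the motor genes at an unadjusted p under 0.05 (17 in F1, 5 in F2 and 20 in F3) none changed the sign of its log2 fold change in any alternative. Over all 67 tested, 21 in F1, 24 in F2 and 17 in F3 did so in at least 1, with sizes of at most 0.15, 0.16 and 0.08.

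The labels do not say whether same-numbered animals were paired, and correlations between libraries cannot settle it. The correlation of same-numbered libraries ran from -0.378 to 0.309. Of these pairs, 2 of 5 in F1, 1 of 6 in F2 and 0 of 6 in F3 were over 0.1 and matched best. The block left MYO5A in F1 at an adjusted p of 0.08.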
